A study of Homo sapiens with 6 samples.

Results

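The genes described here encode the constitutive proteasome and the proteins that assemble it. They are the 43 of 60606 genes in the deposited table whose symbol is PSMA, PSMB, PSMC, PSMD, PSME, PSMF or PSMG followed by a number, leaving out the 5 interferon-inducible genes PSMB8, PSMB9, PSMB10, PSME1 and PSME2. The rule reads symbols and no measured value, though the set was proposed with earlier results of these data known. RNA was sequenced from 6 xenograft tumors, grown under the skin of the left flank of NSG mice from wild-type MDA-MB-231 cells, a human triple-negative breast cancer line, mixed with Matrigel. The irradiated group holds 3 tumors that were given 10 Gy of X-rays locally, in a single dose, at a size near 800 mm3, and were collected 3 days later. The control group holds 3 tumors of the same line, host and site that were not irradiated. The labels give neither the size of the controls nor when they were taken. NSG mice lack T cells, B cells and natural killer cells, and all tumors come from 1 cell line. The labels do not say that each tumor grew in a different mouse, so p-values here speak only of the spread among these samples, which may be technical.

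The proteasome is the protease that degrades most short-lived and damaged proteins of the cytosol and nucleus once they carry ubiquitin chains. Its core particle, the 20S proteasome, is a barrel of stacked rings. Outer alpha rings of PSMA subunits gate the entry, and inner beta rings of PSMB subunits hold the proteolytic sites. The 19S regulatory particle docks on the alpha rings. Its base has a ring of PSMC ATPases that unfold the substrate, and its lid of PSMD subunits carries the enzyme that removes the ubiquitin chain. Dedicated chaperones, PSMG proteins for the core and PSMD5, PSMD9 and PSMD10 for the base, help the parts come together. When proteasome activity is short, the transcription factor NFE2L1 is known to raise most of these genes together. Under interferon, PSMB8, PSMB9 and PSMB10 take the places of the catalytic subunits PSMB5, PSMB6 and PSMB7 in newly built immunoproteasomes.

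All values are levels in TPM, a share of all transcripts corrected for gene length, so genes can be compared with each other. Log2 fold changes are differences in log2(TPM + 1), irradiated minus control, adjusted p-values are limma's with Benjamini-Hochberg adjustment over the 14140 genes that averaged at least 1 TPM, and a gene is said to rise or fall only where its adjusted p was below 0.05. Each tumor had 13392 to 14218 genes at 1 TPM or more, and depth is unknown, since TPM does not record it. The MDA-MB-231 markers VIM, CD44, EGFR, AXL and MSN were present in all 6 tumors. All 5 had log2 fold changes below 0, with a median of -0.44, and none was called. VIM, CD44 and AXL did not overlap between groups, with unadjusted p-values from limma of 0.00821 to 0.0162. EGFR and MSN overlapped. Over all genes tested 55.7% were below 0, 15.0% were lower without overlap and 1.61% were called lower. With an unadjusted p from limma under 0.05, 11.5% were lower. The 5 markers summed to 3928, 3910 and 4393 TPM in irradiated tumors 1, 2 and 3. In control tumors 1, 2 and 3 their sum was 6234, 5656 and 4781 TPM. It was thus lower in irradiated tumors, as the proteasome sum was. Most of the marker sum was VIM, at 3353 TPM on average in irradiated tumors and 4646 TPM in controls. The hormone receptor genes ESR1 and PGR were at or near 0, and KRT19, which the marker list used here has as absent, was present at 109 to 297 TPM in irradiated tumors and 206 to 243 TPM in controls. Skeletal muscle markers summed to 1.01, 81.4 and 0.84 TPM in irradiated tumors 1, 2 and 3, against 123, 149 and 343 TPM in control tumors 1, 2 and 3, with all 8 tested of 10 below 0 and MYH1, MYH4 and CASQ1 called. Fibroblast markers summed to 131, 214 and 152 TPM in irradiated tumors against 474, 525 and 1002 TPM in controls, with COL1A1, COL1A2 and COL3A1 called lower among 5 tested of 8, and LUM and THY1 near 0. The fibroblast marker PDGFRB lay the other way, at 8.09 TPM in irradiated tumors and 3.51 TPM in controls on average (log2 fold change 0.95, adjusted p = 0.211), and DCN was at -0.08. Whether reads of these muscle and fibroblast genes came from human or mouse RNA was not tested, and the handling of mouse reads is unknown. Macrophage markers summed to 96.4 to 192 TPM in irradiated tumors and 81.1 to 99.8 TPM in controls, nearly all of it CD68 (134.7 TPM on average in irradiated tumors and 84.6 TPM in controls), while CSF1R and LYZ were at -0.13 and -0.99 with overlapping groups. Endothelial markers summed to 2.77 to 8.95 TPM in irradiated tumors and 2.25 to 6.78 TPM in controls, and the adipocyte genes ADIPOQ and LEP were at 0. The part of other cells, or of the tumor cell markers, in the proteasome values was not tested. In such bulk samples fewer cells of a type and less RNA per cell cannot be told apart.

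Of the 43 genes, 42 passed the filter on low values. The exception was PSMB11, the catalytic subunit of the thymus, which was listed at 0 in all 6 tumors. PSMA8, the alpha subunit of the testis, lay at 2.55 to 3.64 TPM in irradiated tumors and 3.29 to 4.59 TPM in controls, and 39 genes averaged 20 TPM or more in both groups. Added up, the 43 genes took 0.583%, 0.627% and 0.594% of all transcripts in irradiated tumors 1, 2 and 3, against 0.742%, 0.659% and 0.745% in control tumors 1, 2 and 3. The 3 irradiated tumors were below the 3 controls, and control tumor 2 lay closest to them.

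**Figure D1:**
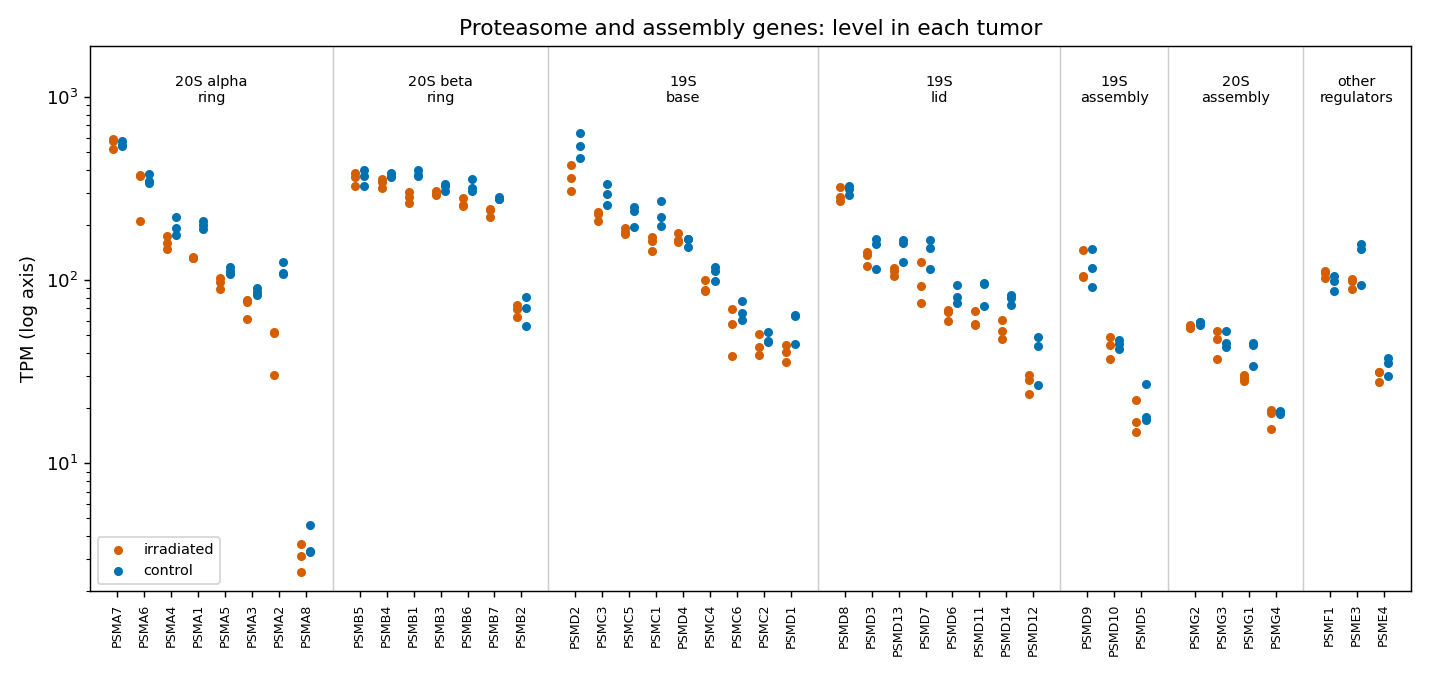
Level of each of the 42 detected proteasome and assembly genes in each tumor, in TPM on a log axis, grouped by subcomplex and ordered by level. Each point is 1 tumor, irradiated at the left and control at the right of each gene, and most irradiated points of the rings, base and lid lie at or below those of the controls, with the widest gap in PSMA2.

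Fold changes of these genes were mostly below 0 and mostly small. In irradiated tumors 37 of 42 genes had a log2 fold change below 0, where 55.7% of all genes tested did, and the median was -0.26 against -0.06 over all genes. The range was -1.38 for PSMA2 to 0.16 for PSMF1, and the median without PSMA2 was -0.25. PSMA1 and PSMA2 fell and no gene rose, so 2 of 42 were called. Of all genes 2.98% were called, 1.61% lower and 1.37% higher. With an unadjusted p under 0.05, 14 genes were lower, where 11.5% of all genes were, and 0 were higher, where 8.93% were. All 3 irradiated tumors lay below all 3 controls for 20 genes, where 15.0% of all genes did so, and above them for 0 genes, where 11.6% did.

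Single tumors moved these counts. The median deviation of the set from the control mean was -0.29, -0.17 and -0.32 log2 units in irradiated tumors 1, 2 and 3, and 0.07, -0.12 and 0.04 in control tumors 1, 2 and 3. Over all genes tested, the median deviation was -0.10, -0.03 and -0.04 in irradiated tumors 1, 2 and 3. In control tumors 1, 2 and 3 it was 0.13, -0.15 and 0.02. Control tumor 2 was thus low over all genes tested too, and not only in this set. It held the lowest control value for 28 of the 42 genes, and irradiated tumor 2 held the lowest irradiated value for 7. Without control tumor 2 there were 8 genes that fell, PSMA1, PSMA2, PSMD1, PSMD11, PSMD12, PSMD13, PSME3 and PSMG1, beside 562 of 14228 genes over all. Without control tumor 1 or without control tumor 3 there were 0, and without any 1 irradiated tumor there was 1, PSMA2. The median of the set stayed between -0.29 and -0.23 whichever of the 6 tumors was left out.

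**Figure D2:**
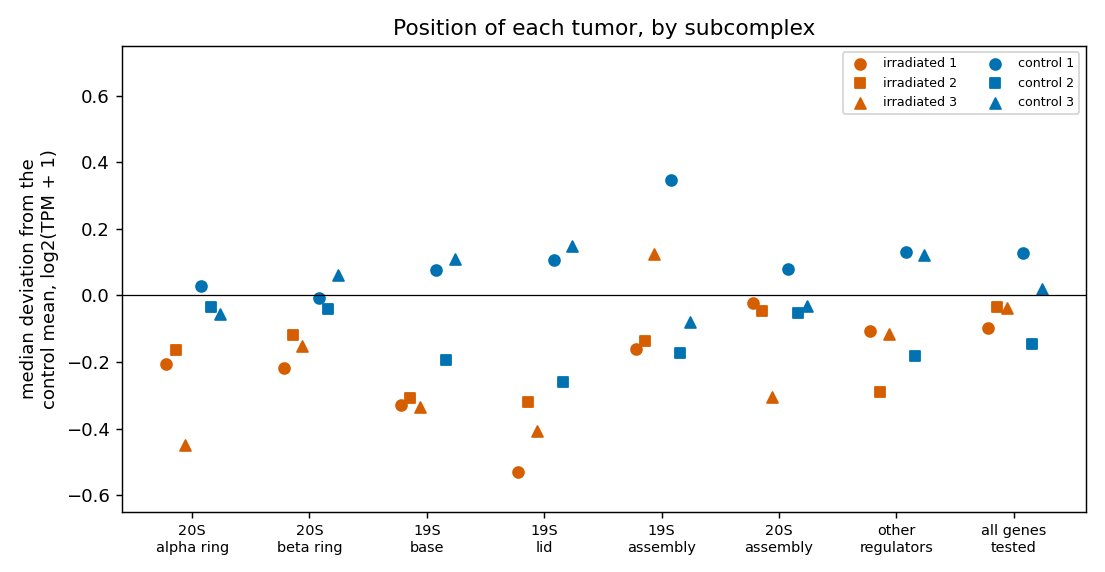
Median deviation of the members of each subcomplex from the control mean, in log2(TPM + 1) units, for each of the 6 tumors, with all 14140 tested genes at the right. In the base the irradiated tumors lie between -0.33 and -0.31 and control tumor 2 at -0.19. In the lid irradiated tumors lie between -0.53 and -0.32 and control tumor 2 at -0.26. Over all tested genes control tumor 2 lies at -0.15, below every irradiated tumor.

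The alpha ring held both called genes. Of its 8 genes 7 were below 0, with a median of -0.25, and its summed level was 1388 ± 128 TPM in irradiated tumors and 1622 ± 35.4 TPM in controls (SD, n = 3 each). PSMA1 (ENSG00000129084, chromosome 11 from 14504874 to 14643635 on the minus strand in GRCh38) had 133, 132 and 134 TPM in irradiated tumors 1, 2 and 3, against 200, 189 and 209 TPM in control tumors 1, 2 and 3. The groups were far apart next to their spread, and the log2 fold change was -0.58 (95% interval -0.84 to -0.32, adjusted p = 0.0370). PSMA1 kept its call only without control tumor 2 among the 6 fits that left out a tumor, with adjusted p-values of 0.0315 to 0.142 over these fits and log2 fold changes of -0.62 to -0.55. PSMA7, an alpha subunit and the most abundant alpha ring gene in every tumor, had 521, 591 and 574 TPM in irradiated tumors and 573, 537 and 548 TPM in controls, and the groups overlapped (log2 fold change 0.02, 95% interval -0.24 to 0.28). PSMA3, PSMA4 and PSMA5, structural subunits of the same ring, were lower in all 3 irradiated tumors than in any control, with log2 fold changes of -0.28, -0.30 and -0.23 and adjusted p-values of 0.263 to 0.333. PSMA6 was low in irradiated tumor 3 alone, at 211 TPM beside 368 and 374 TPM in irradiated tumors 1 and 2, against 338 to 380 TPM in controls.

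PSMA2 (ENSG00000106588, chromosome 7 from 42916857 to 42932223 on the minus strand in GRCh38) had the lowest fold change of the set. Its level was 51.2, 52.0 and 30.3 TPM in irradiated tumors 1, 2 and 3, against 108, 125 and 110 TPM in control tumors 1, 2 and 3. Of PSMA1 to PSMA7, PSMA3 was the lowest in every control. By its own row, without the overlapping row described below, PSMA2 was the lowest of them in every irradiated tumor. The log2 fold change was -1.38 (95% interval -1.87 to -0.89, adjusted p = 0.0178), and the call was lost without control tumor 1 (adjusted p = 0.0666) or control tumor 3 (adjusted p = 0.0610).

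The value of PSMA2 depends on how reads were shared with another row of the table. A gene without a symbol there (ENSG00000256646, AC010132.3 in GENCODE release 29) lies on the same strand, from 42909273 to 42932174, and runs through PSMA2 into a further last exon. Its transcript is annotated as a target of nonsense-mediated decay and has 9 exons, where the main PSMA2 transcript has 8. Both transcripts hold the same 702 coding bases, and they share 781 positions, 52.5% of the PSMA2 transcript and 32.1% of the longer one. Reads from the shared bases do not tell them apart. The last coding exon, which ends both proteins, is shown with its stop codon in capitals, from chr7:42917574-42917690 on the minus strand of GRCh38.
PSMA2: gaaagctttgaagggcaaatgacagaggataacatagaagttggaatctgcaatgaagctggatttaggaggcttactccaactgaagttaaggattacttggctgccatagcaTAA

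This overlapping row moved the other way. Its level was 54.4, 60.6 and 31.7 TPM in irradiated tumors 1, 2 and 3, against 10.5, 10.1 and 5.12 TPM in control tumors 1, 2 and 3, and it rose by a log2 fold change of 2.39 (adjusted p = 0.00931). PSMA2 made up 48.5%, 46.1% and 48.9% of the sum of both rows in irradiated tumors, and 91.1%, 92.6% and 95.6% in controls. The sum was 106, 113 and 62.0 TPM in irradiated tumors, against 118, 135 and 115 TPM in controls. PSMA3 had 75.9, 77.5 and 61.3 TPM in irradiated tumors and 82.7 to 90.5 TPM in controls. The sum was thus above PSMA3 in every tumor. With both rows added up before the fit, the log2 fold change of PSMA2 was -0.44 and its call was lost (adjusted p = 0.313). In irradiated tumor 3 the sum was lowest, and PSMA6 was lowest there too. PSMA1 also has a row over its exons on the same strand (ENSG00000256206), at 4.45 to 5.47 TPM in irradiated tumors and 1.62 to 2.49 TPM in controls, and PSMA1 kept its call with that row added.

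**Figure D3:**
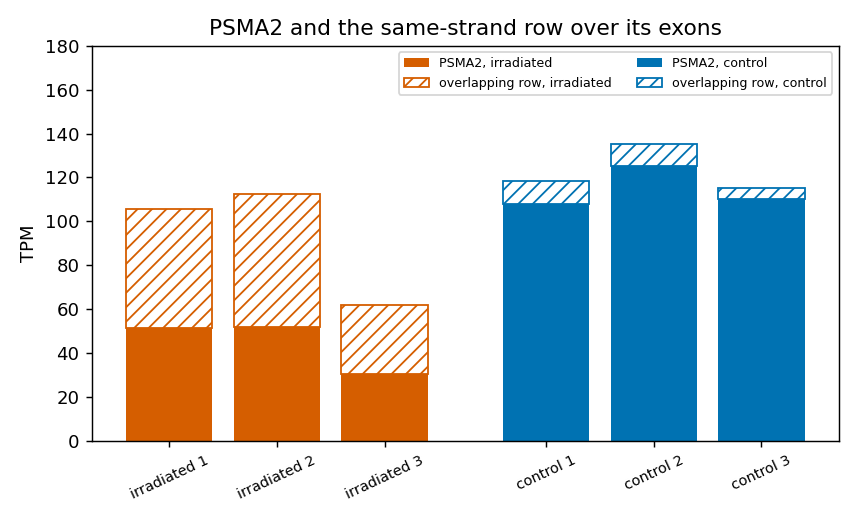
Level of PSMA2 (filled) and of the overlapping same-strand row (hatched, stacked on top) in each tumor, in TPM. PSMA2 alone is at 30.3 to 52.0 TPM in irradiated tumors and 108 to 125 TPM in controls, while the stacked sums are 62.0 to 113 TPM in irradiated tumors and 115 to 135 TPM in controls.

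In the beta ring no gene was called. The structural subunit PSMB1 had the lowest fold change, and the fold changes of the catalytic subunits PSMB6 and PSMB7 were lower than that of PSMB5. Of 7 tested genes 6 were below 0, with a median of -0.14. At an unadjusted p under 0.05, 2 of them were lower, where 11.5% of all genes were. The ring summed to 1847 ± 44.3 TPM in irradiated tumors and 2118 ± 86.8 TPM in controls (SD, n = 3 each). PSMB1, a structural beta subunit (ENSG00000008018, chromosome 6), had 262, 284 and 301 TPM in irradiated tumors against 368, 398 and 376 TPM in controls. These groups did not overlap, with a log2 fold change of -0.43 (95% interval -0.70 to -0.16) and an adjusted p of 0.0897. PSMB5, the subunit with chymotrypsin-like activity, had 364, 385 and 328 TPM in irradiated tumors and 369, 326 and 401 TPM in controls, which overlapped throughout (log2 fold change -0.02, 95% interval -0.32 to 0.28). PSMB6, the subunit with caspase-like activity, had 254, 257 and 281 TPM in irradiated tumors and 308, 318 and 356 TPM in controls, all 3 lower, with a log2 fold change of -0.31 (adjusted p = 0.198). PSMB7, the subunit with trypsin-like activity, had 241, 220 and 245 TPM in irradiated tumors against 279, 278 and 283 TPM in controls. Its groups were also apart, with a log2 fold change of -0.25 (adjusted p = 0.251). PSMB2, the least abundant of PSMB1 to PSMB7 in every tumor, had 62.8, 69.8 and 73.3 TPM in irradiated tumors and 70.5, 56.0 and 81.3 TPM in controls which overlapped (log2 fold change 0.00, 95% interval -0.38 to 0.38). PSMB3 and PSMB4, structural subunits, were lower in all 3 irradiated tumors than in any control but by little, with log2 fold changes of -0.11 and -0.14.

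The 19S base had a median of -0.32, with 8 of 9 genes below 0. None was called by limma, and 4 were lower at an unadjusted p under 0.05, where 11.5% of all genes were. It summed to 1225, 1370 and 1407 TPM in irradiated tumors 1, 2 and 3, against 1865, 1518 and 1854 TPM in control tumors 1, 2 and 3. PSMD2 (ENSG00000175166, chromosome 3), the scaffold subunit that docks shuttle proteins bearing ubiquitin-like domains and the most abundant base gene in every tumor, had 307, 360 and 426 TPM in irradiated tumors, against 637, 462 and 543 TPM in controls. Its groups did not overlap, and its log2 fold change was -0.59 (95% interval -0.97 to -0.20, adjusted p = 0.105). PSMD1, the related scaffold, was also lower in all 3 irradiated tumors, by -0.50 (adjusted p = 0.169). PSMC1, an ATPase subunit (ENSG00000100764, chromosome 14), had 144, 173 and 164 TPM in irradiated tumors against 221, 196 and 270 TPM in controls, with a log2 fold change of -0.50 (adjusted p = 0.118). All 6 ATPase genes were below 0, from -0.50 for PSMC1 to -0.13 for PSMC2. In PSMC1, PSMC3 and PSMC5 the groups did not overlap, where 15.0% of all genes were lower without overlap. PSMD4, which binds ubiquitin chains, stood apart from them, with 165, 162 and 180 TPM in irradiated tumors and 167, 152 and 167 TPM in controls (log2 fold change 0.06, 95% interval -0.21 to 0.33).

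Copies and neighbors of PSMC1 also held signal. Its pseudogene PSMC1P5 was listed at 0, 0 and 1.07 TPM in irradiated tumors 1, 2 and 3, against 52.3, 0 and 162 TPM in control tumors 1, 2 and 3, and PSMC1P1 at 14.6 to 22.9 TPM in irradiated tumors and 19.3 to 32.6 TPM in controls. With its pseudogenes added, the log2 fold change of PSMC1 was -0.79 (adjusted p = 0.135). Exons of NRDE2 on the opposite strand overlap 75.8% of the annotated exonic bases of PSMC1, at 5.07 to 18.9 TPM in irradiated tumors and 4.53 to 11.2 TPM in controls. Of the 36 pseudogene rows of the set, 4 reached 1 TPM in any tumor.

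The 19S lid had the lowest median of the subcomplexes, -0.44, with all 8 genes below 0. The groups did not overlap in 4 of its genes, where 15.0% of all genes were lower without overlap. None was called by limma, and 5 were lower at an unadjusted p under 0.05, where 11.5% of all genes were. It summed to 802, 929 and 795 TPM in irradiated tumors 1, 2 and 3, against 1117, 899.9 and 1107 TPM in control tumors 1, 2 and 3, so that irradiated tumor 2 was above control tumor 2. PSMD14 (ENSG00000115233, chromosome 2), the metalloprotease that cuts ubiquitin chains off the substrate, had 52.8, 60.6 and 48.0 TPM in irradiated tumors against 83.1, 79.5 and 73.4 TPM in controls. All irradiated values were below all control values, with a log2 fold change of -0.54 (95% interval -0.87 to -0.22, adjusted p = 0.0816). PSMD11, a scaffold subunit of the lid, had 57.6, 67.4 and 56.9 TPM in irradiated tumors against 95.6, 72.2 and 96.5 TPM in controls. It too did not overlap, with control tumor 2 nearest, and its log2 fold change was -0.52 (adjusted p = 0.120). PSMD7, the inactive partner of PSMD14 in the lid, had the lowest lid fold change, -0.56, with a wide interval of -1.06 to -0.06 and overlapping groups (adjusted p = 0.193). PSMD6 and PSMD13, other scaffold subunits, were lower in all 3 irradiated tumors by -0.35 and -0.42, while PSMD12 (-0.47), PSMD3 (-0.12) and PSMD8 (-0.09), the most abundant lid gene in every tumor, overlapped.

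**Figure D4:**
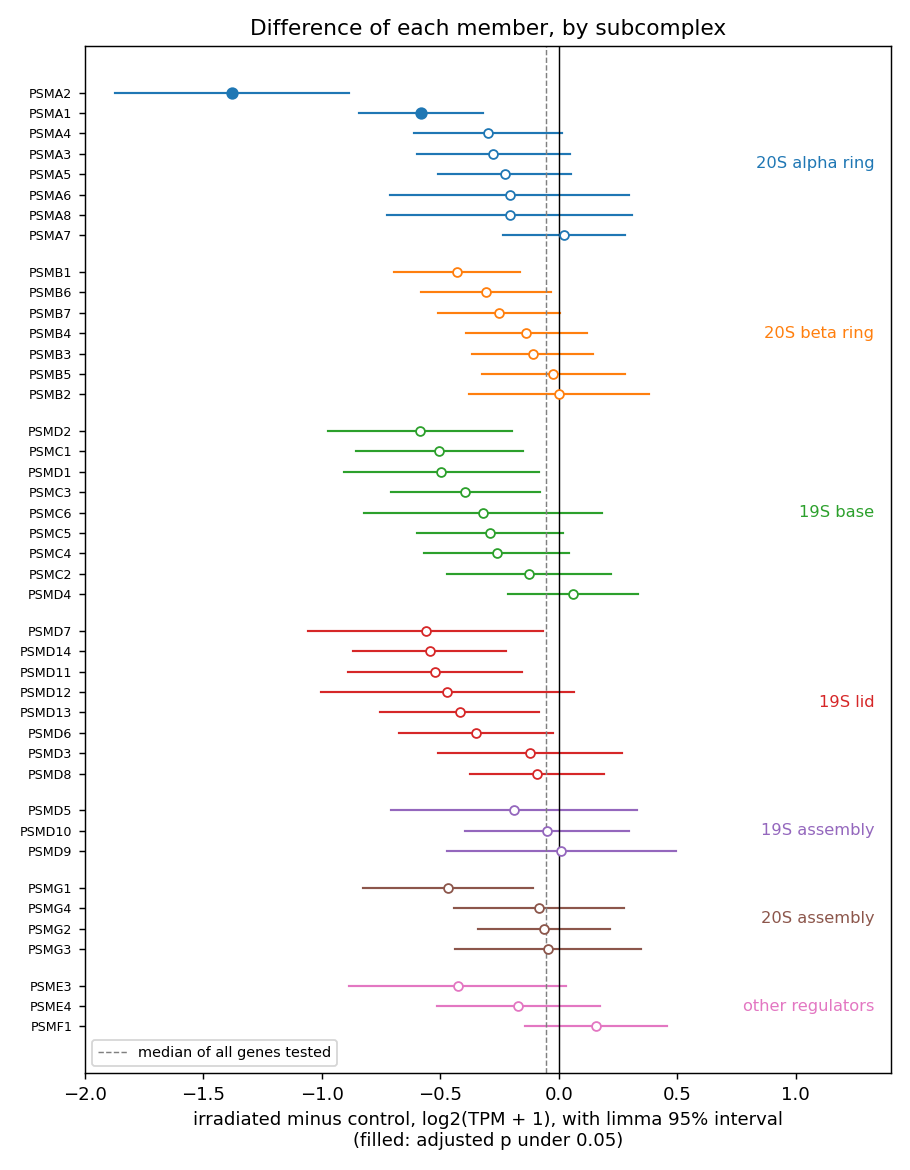
Log2 fold change of each of the 42 tested genes, irradiated minus control, with limma's 95% interval, grouped by subcomplex, with filled points for genes past the adjusted p and a dashed line at the median of all genes. PSMA2 at -1.38 and PSMA1 at -0.58 are filled, the 8 lid genes all lie left of 0, and the assembly chaperones other than PSMG1 lie between -0.19 and 0.01.

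Base and lid together, as the 19S particle, had 16 of 17 genes below 0 and a median of -0.39, and 9 of them had groups without overlap. Of all genes tested 55.7% were below 0 and 15.0% were lower without overlap. The summed level of the 19S genes over that of the 20S genes was 0.633, 0.681 and 0.704 in irradiated tumors 1, 2 and 3, against 0.796, 0.664 and 0.772 in control tumors 1, 2 and 3. Control tumor 2 lay within the irradiated range, so the groups overlapped.

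Fold changes of the assembly chaperones were nearer to 0, apart from PSMG1. Of the 7 genes 6 were below 0, the median was -0.06, and none was called by limma. PSMG1 alone was lower at an unadjusted p under 0.05, where 11.5% of all genes were. PSMG1, which pairs with PSMG2 to build the alpha ring, had 30.4, 29.1 and 28.3 TPM in irradiated tumors against 45.2, 34.2 and 44.1 TPM in controls, with a log2 fold change of -0.47 (95% interval -0.82 to -0.11, adjusted p = 0.143). Its partner PSMG2 was at 54.8 to 57.1 TPM in irradiated tumors and 56.7 to 59.3 TPM in controls, with a log2 fold change of -0.06. The other pair of chaperones of the alpha ring was also close to 0, at -0.05 for PSMG3 and -0.08 for PSMG4. PSMG4 had 19.5, 18.9 and 15.4 TPM in irradiated tumors and 19.2, 19.04 and 18.6 TPM in controls, with irradiated tumor 3 alone below the rest. Among the chaperones of the base, PSMD5 had 14.9, 16.7 and 22.2 TPM in irradiated tumors and 27.0, 17.9 and 17.2 TPM in controls. PSMD10 had 44.0, 49.0 and 37.0 TPM in irradiated tumors and 44.9, 46.9 and 42.1 TPM in controls. PSMD9 had 104, 106 and 147 TPM in irradiated tumors and 149, 91.6 and 116 TPM in controls. The groups of all 3 overlapped, with log2 fold changes of -0.19, -0.05 and 0.01.

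The remaining regulators bind the core itself. None of the 3 was called by limma or reached an unadjusted p under 0.05. PSME3, the nuclear cap that opens the core without ATP, had 89.6, 101 and 98.5 TPM in irradiated tumors against 147, 94.4 and 157 TPM in controls. Control tumor 2 was among the irradiated values, and the log2 fold change was -0.43 (adjusted p = 0.271), and -0.65 (adjusted p = 0.0353) without that tumor. PSME4, a large cap known for its part in histone degradation, had 31.7, 27.7 and 31.5 TPM in irradiated tumors and 37.5, 30.0 and 35.5 TPM in controls (log2 fold change -0.17, adjusted p = 0.553). PSMF1, known as an inhibitor of the purified core, had 113, 102 and 110 TPM in irradiated tumors and 98.7, 87.0 and 105 TPM in controls. It had the highest fold change of the set, 0.16 (95% interval -0.14 to 0.46), with overlapping groups.

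Set beside their constitutive counterparts, the interferon-inducible subunits took a larger share of each catalytic pair. The 5 inducible genes had log2 fold changes of 0.49 to 1.06, each with all irradiated tumors above all controls, where 11.6% of all genes were. PSMB9 rose (adjusted p = 0.0251), where 1.37% of all genes were called higher. Its level was 144, 112 and 103 TPM in irradiated tumors against 49.7, 52.5 and 68.4 TPM in controls, a call lost without control tumor 1 or any 1 irradiated tumor (adjusted p up to 0.0904). PSMB8 had 214, 182 and 185 TPM in irradiated tumors against 113, 115 and 143 TPM in controls (adjusted p = 0.0547). PSMB10 had 95.3, 83.8 and 83.7 TPM in irradiated tumors against 58.2, 62.2 and 55.2 TPM in controls (adjusted p = 0.0571). Neither passed, though their groups did not overlap, and PSME1 (adjusted p = 0.0515) and PSME2 (adjusted p = 0.131) did not pass either.

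Within a tumor, the share does not depend on the total of all transcripts. PSMB8 made up 37.0%, 32.1% and 36.1% of PSMB8 and PSMB5 together in irradiated tumors 1, 2 and 3, against 23.5%, 26.1% and 26.3% in control tumors 1, 2 and 3. PSMB9 made up 36.1%, 30.3% and 26.8% of PSMB9 and PSMB6 in irradiated tumors, against 13.9%, 14.2% and 16.1% in controls. PSMB10 made up 28.4%, 27.6% and 25.5% of PSMB10 and PSMB7 in irradiated tumors, against 17.3%, 18.3% and 16.3% in controls. All irradiated tumors were above all controls in the 3 pairs, and the log2 ratios differed by 0.67, 1.36 and 0.82. A two-sided exact permutation test gave p = 0.1 for each pair, also after adjustment over the 3 pairs, which is the smallest p that 3 tumors against 3 can give. In the pair of PSMB8 and PSMB5 the constitutive gene had overlapping groups, while in the other pairs it was lower in all 3 irradiated tumors than in any control.

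**Figure D5:**
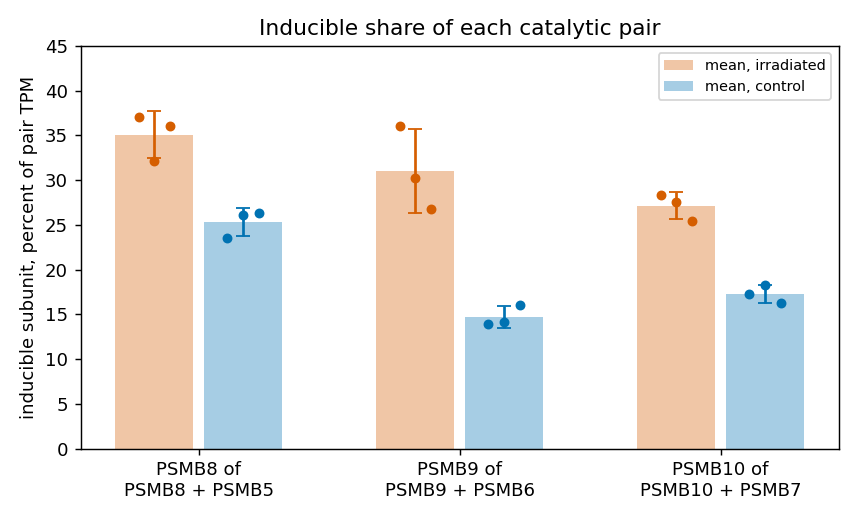
Share of the inducible subunit in each catalytic pair, in percent of the TPM of the pair. Bars are means, error bars SD over 3 tumors and points single tumors, with irradiated at 35.1%, 31.1% and 27.1% and control at 25.3%, 14.7% and 17.3% from the left pair to the right.

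Promoters of 3 genes are shown because they hold motifs known to be bound by regulators of proteasome genes or of interferon responses. The windows are the 250 bases before the RefSeq start in GRCh38.p14, found for 37 of the 43 genes and for all 5 inducible ones, and both strands were searched. None of the 4 motifs contains another. PSMA2, the gene with the lowest fold change, has a CCAAT box, in capitals, 84 bases before the start (chr7:42932175-42932424, minus strand). The overlapping gene ENSG00000256646, whose row rose, begins at 42932174 on the same strand, so this window lies before its start too. PSMD12, a lid gene, has the antioxidant response element TGACNNNGC, the kind of site NFE2L1 binds, 165 bases before the start, and the ETS motif CCGGAAG, here read on the other strand as CTTCCGG, 8 bases before it (chr17:67366578-67366827, minus strand). PSMB10, an inducible subunit, has the core of an interferon-stimulated response element, which is GAAA, any 2 bases and GAAA again, 21 bases before the start (chr16:67936851-67937100, minus strand).
PSMA2: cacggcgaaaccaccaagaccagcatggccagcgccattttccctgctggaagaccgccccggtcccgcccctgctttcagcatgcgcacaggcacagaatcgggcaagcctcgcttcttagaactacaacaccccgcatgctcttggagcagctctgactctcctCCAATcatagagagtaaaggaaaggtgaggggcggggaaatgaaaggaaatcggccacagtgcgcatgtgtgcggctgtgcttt
PSMD12: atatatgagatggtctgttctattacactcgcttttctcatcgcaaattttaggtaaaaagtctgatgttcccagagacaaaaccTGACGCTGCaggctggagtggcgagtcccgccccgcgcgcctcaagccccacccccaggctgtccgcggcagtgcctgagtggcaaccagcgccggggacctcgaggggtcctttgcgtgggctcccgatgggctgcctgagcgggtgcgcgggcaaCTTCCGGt
PSMB10: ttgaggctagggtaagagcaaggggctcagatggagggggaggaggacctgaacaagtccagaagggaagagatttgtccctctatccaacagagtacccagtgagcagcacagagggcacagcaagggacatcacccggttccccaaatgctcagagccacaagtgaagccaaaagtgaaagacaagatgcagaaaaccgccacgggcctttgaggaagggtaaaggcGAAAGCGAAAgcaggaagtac
TGACNNNGC was in 10 of 37 windows (27.0%), where 13.2% of all genes with a window held it, and CCGGAAG was in 11 (29.7%), where 10.2% did. CCAAT was in 18 (48.6%), where 37.0% of all genes held it, and the interferon element was in 3 (8.11%), where 3.71% did. Of the 5 inducible genes, PSMB10 and PSME2 held the interferon element, PSMB9, PSME1 and PSME2 held TGACNNNGC, and none held CCGGAAG. These are matches of letters and not sites shown to be bound.

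Partner genes of the proteasome outside the PSM names, 33 genes in 5 lists, had 22 below 0 and a median of -0.11. UBB was called higher and 0 were called lower by limma, and at an unadjusted p under 0.05 there were 6 lower and 2 higher. Of all genes 55.7% were below 0, 2.98% were called, and 11.5% were lower and 8.93% higher at that unadjusted p, so the called and higher shares of the partners were near or under those of all genes. Among further subunits and assembly proteins, POMP, which helps the unfinished core to close, had 72.3, 81.1 and 73.8 TPM in irradiated tumors against 86.2, 112 and 89.7 TPM in controls, without overlap (log2 fold change -0.33, adjusted p = 0.248). The ubiquitin receptor ADRM1 had 226, 247 and 255 TPM in irradiated tumors and 292, 238 and 289 TPM in controls, which overlapped (log2 fold change -0.17). The small lid subunit SEM1 had 232, 278 and 244 TPM in irradiated tumors and 262, 276 and 255 TPM in controls, which also overlapped (-0.07). All 7 enzymes and stabilisers bound to the proteasome were below 0, with a median of -0.37. ECPAS, a scaffold that holds the 19S particle to the core, was lowest among them at -0.74 (adjusted p = 0.0770). All 6 shuttle receptors, which bring ubiquitinated proteins to the 19S particle, were below 0 as well, with a median of -0.12, and RAD23B was lowest at -0.51 (adjusted p = 0.0934).

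The route through NFE2L1 had 5 of 10 genes below 0 and a median of 0.05, with none called by limma and SYVN1, a ligase of endoplasmic reticulum degradation, alone higher at an unadjusted p under 0.05 (log2 fold change 0.59, adjusted p = 0.0770). NFE2L1 itself had 131, 167 and 121 TPM in irradiated tumors and 120, 99.0 and 156 TPM in controls, which overlapped (log2 fold change 0.17, 95% interval -0.29 to 0.62, adjusted p = 0.667). Its mRNA level does not show its activity, which is set after translation. Of the 6 genes of ubiquitin and its activation, UBB, a polyubiquitin gene induced by stress, had 2793, 2931 and 2959 TPM in irradiated tumors against 1684, 1863 and 2131 TPM in controls. All irradiated tumors were higher, with a log2 fold change of 0.62 (95% interval 0.33 to 0.91, adjusted p = 0.0421), a call kept only without control tumor 2 when tumors were left out in turn (adjusted p up to 0.137). RPS27A, which encodes ubiquitin fused to a ribosomal protein, had 1015, 1124 and 1043 TPM in irradiated tumors against 1422, 1757 and 1322 TPM in controls, with a log2 fold change of -0.49 (adjusted p = 0.0985).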

How the data were processed

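RNA of 3 irradiated and 3 control tumors was measured by RNA-seq, from total RNA with an Illumina TruSeq kit per the labels' protocols. The authors deposited TPM for 60606 genes in 6 columns, each named for 1 tumor, to 2 decimals. Tools named in the submitters' processing notes are HISAT2, StringTie and RSEM, with the build hg38. The sources used here do not give their versions, the annotation release, the strand setting or the handling of mouse reads. TPM are shares, so a rise in abundant genes lowers others, and reads from bases that genes share can be assigned to either gene. Columns fell short of the full total by 0.523% to 0.774% in irradiated tumors and 0.143% to 0.198% in controls.

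The groups were tested in R 4.3.3 with limma 3.58.1 (lmFit, eBayes with trend) on log2(TPM + 1), which understates changes of low genes, over the 14140 genes averaging at least 1 TPM, two-sided, with Benjamini-Hochberg adjustment at 0.05. Depth is unknown, so no count test or counting interval was made. Coordinates (GRCh38) and overlaps came from GENCODE 29, promoters from RefSeq (GRCh38.p14). Catalytic ratios used an exact permutation test in scipy 1.17.1. On simulated data for this comparison, 14140 genes with 200 changed in each of 5 draws, the fit recovered 31.0% of 2-fold and 82.4% of 4-fold changes, with 4.40% false calls.

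Members and lists were chosen with earlier results of these data known. Values in every tumor are given for called members, the catalytic subunits, PSMD4, PSMD14, PSME3, PSME4 and PSMF1. They are also given for the 2 members of smallest p in each subcomplex and the member furthest from 0 against the sign of its median. Of partners, called genes, NFE2L1, POMP, ADRM1, SEM1 and the 3 inducible catalytic subunits were named by rule. Named after their values were seen were ECPAS, RAD23B, RPS27A, SYVN1, the overlapping genes and pseudogenes, and the remaining members. Alternatives were other pseudocounts, filters, scalings and limma settings, a replicate block, each tumor left out and pseudogenes summed. Summing overlapping same-strand genes was added after seeing the data.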

Additional observations from a re-analysis of the deposited data

How the results depend on the processing

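The members stayed mostly below 0 in every setting run, 34 to 39 of those tested, with a median of -0.29 to -0.21. Called members numbered 0 without a filter on low values, 1 with scaling by medians of ratios, without trend, with the replicate block and with overlapping same-strand genes summed, and 0 to 8 with each tumor left out. The labels do not say that equal numbers pair tumors. Correlations of same-numbered deviations from the group means were -0.043, -0.046 and -0.059, which with 3 tumors a group cannot exclude a pairing. With that replicate block 185 genes were called over all. All genes called numbered 133 without a filter, 279 without trend, and 127 to 791 with each tumor left out. PSMA1 lost its call with medians of ratios (adjusted p = 0.0649), no filter (0.0622), no trend (0.0952) and the replicate block (0.112), and PSMA2 with no filter (0.0737) and with the overlapping gene summed (0.313). Partner genes called, counted here with the 5 inducible genes and so 2 in all (UBB and PSMB9), numbered 0 without a filter, without trend and with the replicate block, 1 with a pseudocount of 5 TPM, 4 with robust estimates, 6 with quantile normalization, 6 without mitochondrial and ribosomal protein genes, and 0 to 3 with each tumor left out. Scaling by medians of ratios gave a beta ring median of -0.085 and a log2 ratio of its sums of -0.14. Without its most abundant member that ratio was -0.39 for the alpha ring and 0.079 for the other regulators.

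Members near 0 changed sign. PSMA7 was at -0.034 with quantile normalization, PSMB2 at -0.00061 with a pseudocount of 5 TPM, and PSMB5 at 0.029 with medians of ratios and 0.015 without mitochondrial and ribosomal protein genes. PSMD10 was at 0.00034 with medians of ratios and 0.0047 with quantile normalization, and PSMD9 at -0.036 with overlapping genes summed. With each tumor left out, the range was -0.015 to 0.076 for PSMA7, -0.14 to 0.12 for PSMB2, -0.10 to 0.047 for PSMB5, -0.14 to 0.056 for PSMD10, -0.34 to 0.011 for PSMD5, -0.16 to 0.19 for PSMD9 and -0.14 to 0.017 for PSMG4. The causes were not tested. Unknown depth and 3 tumors a group limit what could be detected.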
